A study of Rattus norvegicus with 244 samples.

Results

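Gene expression was compared in the raphe of the rat brainstem 7 d and 14 d after a moderate spinal cord injury and at the same times after sham surgery. Samples were chosen by their titles, which name the region, the treatment and the time. No measured value entered this rule, although earlier results of these data were known. This gave 8 injured samples (4 at 7 d and 4 at 14 d) and 4 sham samples (2 at 7 d and 2 at 14 d), which are 12 of the 84 samples and 36 of the 244 arrays of the study. The injured rats had the labelled moderate injury of the cord, which lies outside the tissue that was sampled. The sham rats had a laminectomy, the opening of the vertebral arch over the cord, with no injury. Naive rats, 4 raphe samples on 11 arrays, had no operation. Each of the 12 injured and sham samples was hybridised to 3 array designs with different probes, type A, type B and type C, and naive replicate 1 has no type C array here. The labels give neither strain, sex, age nor cord level, and they do not say whether samples came from separate animals, so the p-values measure the spread between these samples. The source is labelled raphe in the injured samples and raphe magnus in the sham and naive samples, and a difference in dissection cannot be told apart from the injury.

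The raphe nuclei hold the serotonin neurons of the brain. Those of the caudal raphe, the raphe magnus among them, send long axons down the spinal cord, where serotonin sets the excitability of motor neurons and the transmission of pain. A cord injury cuts or spares these axons far from their cell bodies, and the tissue around those cell bodies holds other neurons, astrocytes, microglia, oligodendrocytes and vessels as well. In bulk tissue such as this, fewer cells of a type and less RNA per cell cannot be told apart.

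Markers of serotonin neurons were present in every sample of both groups. The serotonin transporter gene Slc6a4 read between 1055 and 1689 intensity units in the 8 injured samples, against 885 to 1512 in the 4 sham samples, and it read 105 to 809 in the 8 injured samples of cortex at these times. The serotonin neuron factor Fev read 688 to 1285 in injured raphe and 628 to 886 in sham raphe. Both genes overlapped between the groups, with a log2 difference, injured minus sham, of 0.15 ± 0.16 for Slc6a4 (SE, adjusted p = 0.619) and 0.16 ± 0.16 for Fev (adjusted p = 0.602), in limma with time as a block. The differences given below come from the same fit, made across 16663 probe sets, with Benjamini-Hochberg adjustment over all of them and a threshold of an adjusted p of 0.05. A value had 32 added before its log2 was taken, which draws the differences of weak genes towards 0.

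The sequences before the start of 4 genes that rose are shown first. Ccn2 and S100a11 had the largest differences over both times among the genes described here, each gene taken by its probe set with the highest mean. Hspa13 is the third gene taken as a mark of this time window, and Timp3 was among the rises that held under each alternative tried. Each sequence is the 250 bases before the gene's start in RefSeq on the build GRCr8, printed 5′ to 3′ on the gene's strand. They lie at chr1:22624615-22624864 (minus strand) for Ccn2, chr2:181874882-181875131 (plus strand) for S100a11, chr11:27876899-27877148 (minus strand) for Hspa13 and chr7:19459559-19459808 (minus strand) for Timp3. Capitals mark the TEAD site GGAATG and the TATA box TATAAA in Ccn2, the GC box GGGCGG in S100a11 and Hspa13, and the GC box and the CCAAT box in Timp3, searched on both strands.
Ccn2: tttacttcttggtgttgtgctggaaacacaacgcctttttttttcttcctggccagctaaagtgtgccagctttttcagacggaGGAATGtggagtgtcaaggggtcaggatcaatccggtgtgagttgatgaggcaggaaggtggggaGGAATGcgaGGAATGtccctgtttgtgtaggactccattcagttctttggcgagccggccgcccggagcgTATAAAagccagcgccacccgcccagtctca
S100a11: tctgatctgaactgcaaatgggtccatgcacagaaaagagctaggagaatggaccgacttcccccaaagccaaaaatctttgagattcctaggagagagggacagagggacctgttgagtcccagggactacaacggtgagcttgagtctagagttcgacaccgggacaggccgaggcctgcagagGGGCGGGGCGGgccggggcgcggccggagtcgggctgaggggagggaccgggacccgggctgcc
Hspa13: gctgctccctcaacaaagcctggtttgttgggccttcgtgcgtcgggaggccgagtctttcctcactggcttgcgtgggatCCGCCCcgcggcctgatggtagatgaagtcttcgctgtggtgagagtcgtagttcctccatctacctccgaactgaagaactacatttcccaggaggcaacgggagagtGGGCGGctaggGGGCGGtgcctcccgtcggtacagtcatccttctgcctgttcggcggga
Timp3: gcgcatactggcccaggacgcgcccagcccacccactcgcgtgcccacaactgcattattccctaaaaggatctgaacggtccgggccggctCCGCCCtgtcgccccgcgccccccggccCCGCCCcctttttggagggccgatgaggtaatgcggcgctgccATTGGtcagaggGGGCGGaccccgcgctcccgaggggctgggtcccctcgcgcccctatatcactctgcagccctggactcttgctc
The window of Ccn2 holds 3 matches to GGAATG, 166, 101 and 92 bases before the start, and a TATA box 31 bases before it. Its 2 GC boxes were left in lower case. S100a11 has 2 overlapping GC boxes at 64 and 59 bases, Hspa13 has 3 at 169, 60 and 49 bases, and Timp3 has 3 at 158, 130 and 75 bases with a CCAAT box at 87. Of the 33469 windows of this length in the RefSeq table, 12.1% hold GGAATG, 12.9% TATAAA, 30.5% GGGCGG and 34% CCAAT. None of the 4 windows holds the AP-1 site TGACTCA, found in 4.05% of windows, or the endoplasmic reticulum stress element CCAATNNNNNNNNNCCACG, found in 0.0657%. A match of letters is a description of the sequence and not a measured site.

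Over both times, 222 genes rose in injured raphe and 110 fell, of 8553 genes tested. These are 2.6% and 1.29% of the genes, and the differences ran from 0.36 to 2.10 on the log2 scale among the rises and from 0.32 to 1.08 in size among the falls. Ccn2, a secreted matrix protein induced by TGF-beta, S100a11, a small calcium-binding protein, and Hspa13, a member of the Hsp70 family of chaperones, were among the rises. Hmgb1, a chromatin protein, Timp3, an inhibitor of matrix metalloproteinases, and Tfpi, an inhibitor of the start of blood clotting, rose with little spread between samples. Cyb5b, a cytochrome b5 of the outer mitochondrial membrane, the trafficking proteins Stx6 and Stx16, and Hadh, an enzyme of mitochondrial fatty acid oxidation, were among the falls. All 8 injured samples lay above all 4 sham samples for 155 of the 222 risen genes, and below them for 79 of the 110 fallen genes. Of all tested genes, called or not, 2.84% had all injured samples above all sham samples and 2.24% had them all below.

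The sham samples at 7 d weighed most on these counts. At the level of probe sets, 676 passed the threshold (477 higher in injured raphe and 199 lower). Without sham replicate 1 at 7 d this was 145, and without sham replicate 2 at 7 d it was 242. Leaving out an injured sample gave 325 (7 d replicate 3), 334 (7 d replicate 1), 393 (7 d replicate 2), 411 (7 d replicate 4), 327 (14 d replicate 3) or 388 (14 d replicate 4), and between 545 and 783 for the remaining samples. With the spread taken from all raphe groups of the study the count was 161. Those groups hold injured replicate 1 at 4 h and sham replicate 1 at 3 months, which are doubted below. The actin 3′ to 5′ ratio is a sign of RNA quality. With the log2 ratio of each sample's type A array as a covariate on all array types, the count was 167. With the replicate number as a further block the count was 43. Of the 68 genes named by rule that passed, 63 lost their call with that block. Without sham replicate 1 at 7 d 53 lost it, and 50 lost it with the shared spread. Ccn2, Timp3 and Hmgb1 kept theirs under each of the alternatives.

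Ccn2 read 652, 758, 599 and 566 intensity units in the 4 injured samples at 7 d and 707, 491, 927 and 542 in the 4 injured samples at 14 d, against 90.3 and 41.3 in sham samples at 7 d and 257 and 205 in sham samples at 14 d. Every injured sample lay above every sham sample, and the lowest values were those of the sham samples at 7 d. The log2 difference was 2.10 ± 0.27 (SE, n = 8 and 4, adjusted p = 0.00517 in limma). Ccn2 read 427, 694, 522 and 414 in naive raphe, so the naive samples overlapped with the injured ones and lay above all sham samples.

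S100a11 had the same order of groups. It read 343, 431, 215 and 346 in injured samples at 7 d and 404, 278, 465 and 329 at 14 d, against 28.4 and 52.6 in sham samples at 7 d and 212 and 144 at 14 d. The groups did not overlap, although the lowest injured value was close to the highest sham value. The log2 difference was 1.62 ± 0.27 (adjusted p = 0.0117 in limma). The mean of the sham samples was below the level of the bacterial control probe sets, which have no target in rat RNA, so its fold is uncertain. That level, used here and below, is the highest mean among the 15 such probe sets, 105 intensity units on this array type. The 3 naive samples measured read 301, 420 and 378, within the range of the injured samples.

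Hspa13 differed from both in its naive level. It read 346, 261, 260 and 409 in injured samples at 7 d and 196, 279, 353 and 284 at 14 d, against 45.1 and 45.9 in sham samples at 7 d and 153 and 195 at 14 d. The groups touched without overlap, since the lowest injured sample and the highest sham sample, both at 14 d, were nearly equal. The log2 difference was 1.36 ± 0.28 (adjusted p = 0.0228 in limma), and it was 1.16 with an adjusted p of 0.0823 without sham replicate 1 at 7 d and 1.17 with 0.0669 without sham replicate 2 at 7 d. With the actin ratio as a covariate its adjusted p was 0.0763. Naive raphe read 72.9, 197, 72.4 and 102, below 7 of the 8 injured samples.

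**Figure D1:**
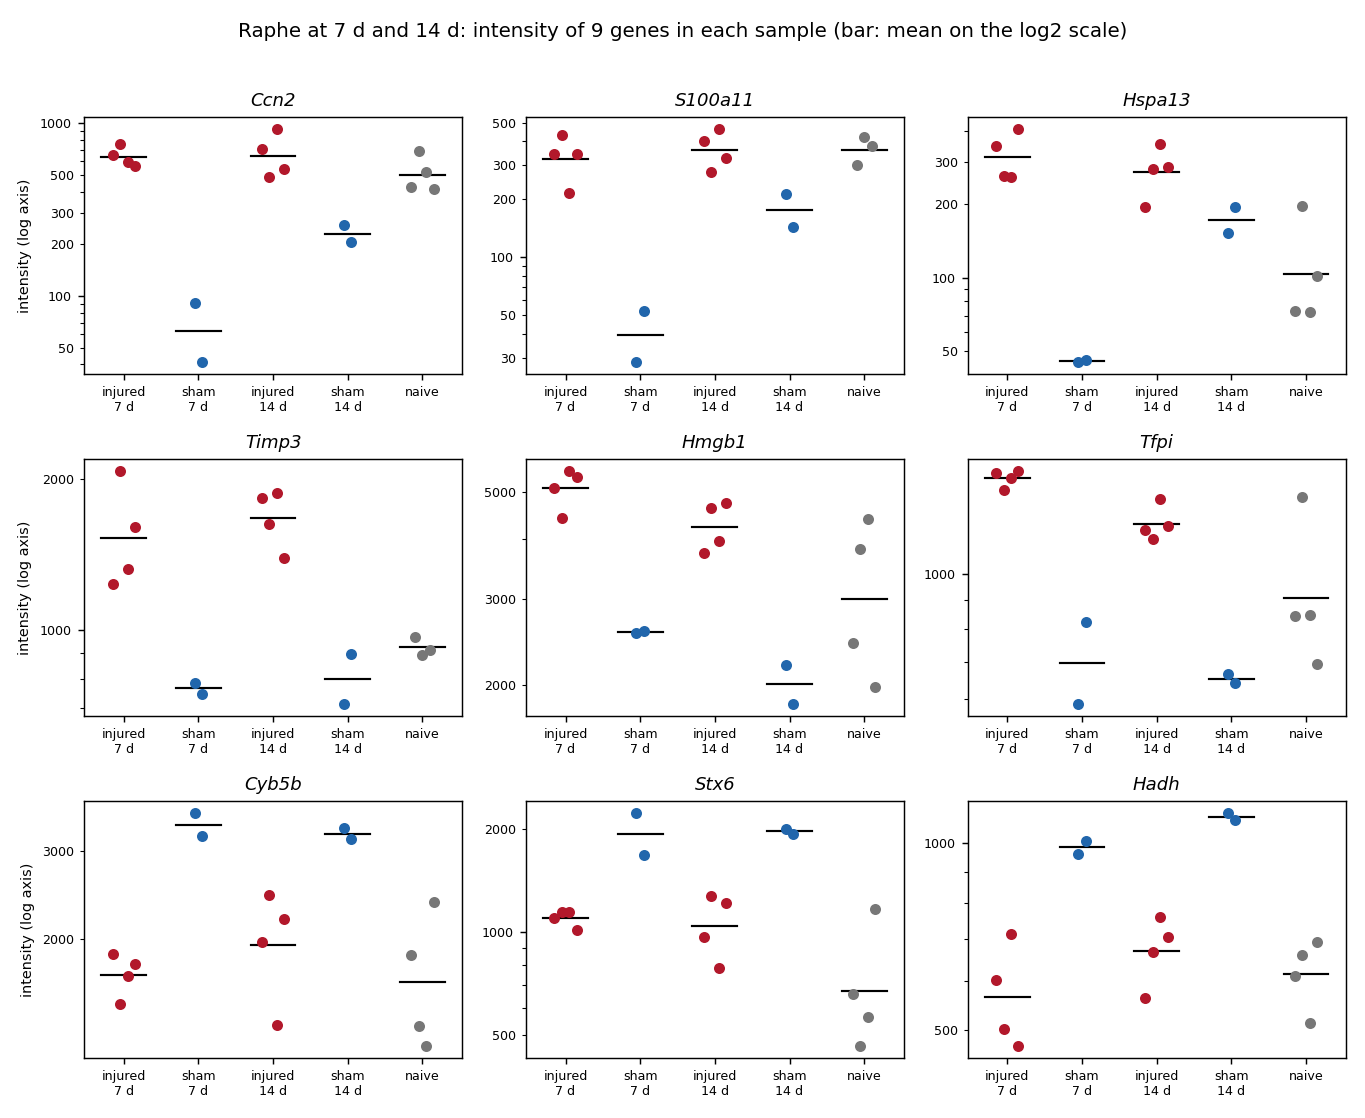
Intensity (log axis) of 9 genes in each raphe sample, injured and sham at 7 d, injured and sham at 14 d, and naive, with a bar at the mean of the log2 values. Ccn2 and S100a11 are low in sham raphe at 7 d (41.3 to 90.3 for Ccn2) while injured and naive samples share a range, and Hadh is high in sham raphe (962 to 1119).

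Hmgb1, which is also released from damaged cells as a danger signal, had the smallest adjusted p of the genes described here, shared with Tfpi. It read 5093, 4423, 5529 and 5362 in injured samples at 7 d and 3732, 4631, 3952 and 4736 at 14 d, against 2556 and 2580 in sham samples at 7 d and 2196 and 1822 at 14 d. Its log2 difference was 1.02 ± 0.11 (adjusted p = 0.0016 in limma), with a wide gap between the groups. Naive samples spread over both, from 1977 to 4401.

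Tfpi read 1510, 1409, 1483 and 1526 in injured samples at 7 d and 1196, 1156, 1359 and 1220 at 14 d, against 589 and 821 in sham samples at 7 d and 665 and 640 at 14 d, with no overlap. The log2 difference was 0.97 ± 0.11 (adjusted p = 0.0016 in limma). With the spread of all raphe groups, doubted samples included, its adjusted p was 0.101, the alternative that ended its call. Timp3 read 1235, 2073, 1323 and 1606 in injured samples at 7 d and 1834, 1623, 1871 and 1390 at 14 d, against 787 and 747 in sham samples at 7 d and 713 and 895 at 14 d. The log2 difference was 1.00 ± 0.14 (adjusted p = 0.006 in limma), and all 8 injured samples were above all sham samples and above the 3 naive samples measured, which read 894 to 971. The other tested probe sets of these genes did not pass: all 4 for Timp3 and the 1 for Hmgb1 had the same sign, and the 1 for Tfpi had the opposite sign.

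Further rises were seen in genes of membranes and signalling. Cacna2d1, the auxiliary calcium channel subunit that binds gabapentin, had 542 to 1190 intensity units in injured raphe (median 803) and 158 to 389 in sham raphe (median 325), a log2 difference of 1.38 ± 0.24. Gng5, a gamma subunit of G proteins, had 1493 to 2085 in injured raphe and 480 to 1163 in sham raphe, a difference of 1.06 ± 0.18. Camk2n1, an inhibitor of calcium and calmodulin dependent kinase II, had 2137 to 3763 in injured raphe and 883 to 1809 in sham raphe, a difference of 1.04 ± 0.20. None of these 3 genes overlapped between the groups. Camk2n1 lost its call without either sham sample at 7 d (adjusted p 0.0682 without replicate 1 and 0.0594 without replicate 2), and the others kept theirs when any sample was left out.

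Sh3bgrl1, a small protein with a thioredoxin-like fold, read 1016 to 2116 in injured raphe and 450 to 860 in sham raphe, a difference of 1.25 ± 0.20. Tmem167a, a small membrane protein of the secretory pathway, read 803 to 1199 in injured raphe and 260 to 473 in sham raphe, a difference of 1.23 ± 0.16 (adjusted p = 0.00517 in limma). Serinc5, a membrane protein with many spans, read 910 to 1287 in injured raphe and 255 to 872 in sham raphe, a difference of 1.03 ± 0.24. These groups did not overlap. Wdr75, a factor of ribosome assembly, did overlap, with 476 to 1133 in injured raphe and 230 to 496 in sham raphe and a difference of 1.04 ± 0.22.

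Gal encodes galanin, a neuropeptide that many injured neurons make in larger amounts. It read 756, 547, 632 and 651 in injured samples at 7 d and 441, 572, 755 and 448 at 14 d, against 219 and 368 in sham samples at 7 d and 180 and 397 at 14 d. All injured samples lay above all sham samples, with a log2 difference of 1.01 ± 0.21 (adjusted p = 0.0254 in limma), and naive samples read 225 to 570. Its adjusted p was 0.0892 without sham replicate 1 at 7 d and 0.0606 without sham replicate 1 at 14 d. Klf7, a transcription factor of axon growth, rose by 0.55 ± 0.12 with no overlap (1128 to 1553 in injured raphe and 781 to 1073 in sham raphe), and Lingo1, a receptor that limits axon growth and myelination, fell by 0.50 ± 0.11 on the log2 scale (1476 to 2211 in injured raphe and 2374 to 3021 in sham raphe). The other tested sets had the opposite sign and did not pass, at -0.12 and -0.15 for Klf7 and 0.31 for Lingo1. Gal, Klf7 and Lingo1 were the 3 called of 38 tested genes of axon growth and regeneration, whose median difference was 0.06, beside 0.0017 over all genes.

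Among the genes that fell, Cyb5b read 1864, 1487, 1692 and 1781 in injured samples at 7 d and 1969, 2442, 1351 and 2193 at 14 d, against 3566 and 3201 in sham samples at 7 d and 3325 and 3163 at 14 d. The log2 difference was -0.85 ± 0.15 (adjusted p = 0.0151 in limma), and the groups were well apart. Without sham replicate 1 at 7 d the adjusted p was 0.0547. Of its other 3 tested probe sets none passed, and 1 had the same sign.

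Stx6, a syntaxin of the trans-Golgi network and endosomes, read 1095, 1142, 1141 and 1016 in injured samples at 7 d and 968, 1270, 783 and 1212 at 14 d, against 2225 and 1680 in sham samples at 7 d and 1999 and 1931 at 14 d. It fell by 0.85 ± 0.14 on the log2 scale (adjusted p = 0.0114 in limma), with no overlap, while its other tested probe set had the opposite sign and did not pass. Stx16, a partner in the same transport route, read 977 to 1589 in injured raphe and 1723 to 2640 in sham raphe and fell by 0.83 ± 0.15. Hadh read 602, 502, 715 and 472 in injured samples at 7 d and 563, 669, 760 and 705 at 14 d, against 962 and 1008 in sham samples at 7 d and 1119 and 1088 at 14 d. Its difference was -0.73 ± 0.13 (adjusted p = 0.014 in limma), and the naive samples, at 513 to 693, were on the side of the injured ones.

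Further falls were found for genes of protein and RNA handling. Mrpl58, a release factor of the mitochondrial ribosome, fell by 0.91 ± 0.20 (234 to 532 intensity units in injured raphe and 646 to 865 in sham raphe), while its other tested set had the opposite sign, at 0.44, and did not pass. Ubqln4, a shuttle to the proteasome, fell by 0.87 ± 0.19, Ppil2, a prolyl isomerase, by 0.79 ± 0.17 and Tsr3, an enzyme of ribosomal RNA modification, by 0.67 ± 0.12, none with overlap. Inka2, an inhibitor of the kinase PAK4, fell by 0.78 ± 0.18, the actin crosslinker Actn1 by 0.68 ± 0.14, Klhl26 by 0.66 ± 0.16 and the zinc finger gene Zfp335, whose groups overlapped, by 0.69 ± 0.18.

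Of 280 called probe sets with another tested set for the same gene, which made 523 pairs, the other set had the same sign in 68.5% of pairs, was called in the same direction in 40 pairs and in the opposite direction in 2. Ccn2, S100a11, Hspa13, Gal, Cacna2d1, Gng5 and Hadh had no other tested set, so each rests on 1 probe set. Besides the genes for which this is given above, at least 1 other tested set had the opposite sign for Camk2n1, Klf9, RT1-M3-1, Col3a1, Mobp, Calr, Map6, Tubb5, Ccnd3 and Mcm6.

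Gene groups were described by how many of their tested members passed and by the median difference of all of them, beside the 2.6% and 1.29% of all genes. Each member was counted by 1 probe set, the one with the highest mean. Genes that respond to glucocorticoids had the highest median among the pathway lists, 0.35 on the log2 scale, with 18 of 21 members higher in injured raphe. Klf9, a transcription factor induced by corticosterone, rose by 0.66 ± 0.13, reading 1948 to 2718 in injured raphe and 1325 to 1789 in sham raphe with no overlap. Cdkn1a, an inhibitor of the cell cycle, rose by 0.84 ± 0.19 (321 to 559 in injured raphe and 140 to 306 in sham raphe). Hsd11b1, the enzyme that regenerates active glucocorticoid, rose by 0.84 ± 0.21 with overlapping groups (1418 to 2801 in injured raphe and 911 to 1582 in sham raphe). No member fell. The summed intensity of the list was highest in injured 14 d replicates 1, 3 and 2 and injured 7 d replicate 2 (58450, 54820, 54580 and 53490), the same 4 samples that had the highest sums of meninges and fibroblast genes (31260, 29880, 17760 and 39200), and the part of that tissue was not tested. When single samples were left out, the median stayed between 0.30 and 0.41 and the number of called members ran from 0 to 3. Klf9 lost its call without either sham sample at 7 d (adjusted p 0.0611 without replicate 1 and 0.0594 without replicate 2).

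Microglia and macrophage genes had a median of 0.13, and 2 of 22 rose. Tyrobp, an adaptor of immune receptors, read 759, 826, 832 and 594 in injured samples at 7 d and 941, 863, 728 and 803 at 14 d, against 521 and 414 in sham samples at 7 d and 519 and 523 at 14 d. Its log2 difference was 0.65 ± 0.11 (adjusted p = 0.0155 in limma), and the groups did not overlap. Ctss, the lysosomal protease cathepsin S, rose by 0.53 ± 0.12. The difference was above 0 for 15 of the 22 members and below 0 for the others. The summed intensity of the 22 genes was 26050 to 30640 in injured raphe and 21650 to 25660 in sham raphe, without overlap. Against naive raphe the median of the list was -0.08 for injured and -0.18 for sham samples. Of the 22 astrocyte genes, none passed, with a median of -0.06.

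Genes of interferon response and antigen presentation had a median of 0.14, with 27 of 36 higher in injured raphe and 3 that rose. These were the class II gene RT1-Da (600 to 1617 in injured raphe and 282 to 508 in sham raphe, difference 1.05 ± 0.25) and the class I genes RT1-M3-1 (0.68 ± 0.14) and RT1-S3 (0.65 ± 0.16). None of the 3 overlapped. Genes of the RT1 region have near copies whose RNA can bind the same probes, and their values cannot be assigned to 1 member with certainty. The call of RT1-Da was lost without any of 8 of the 12 samples, with adjusted p-values up to 0.107.

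**Figure D2:**
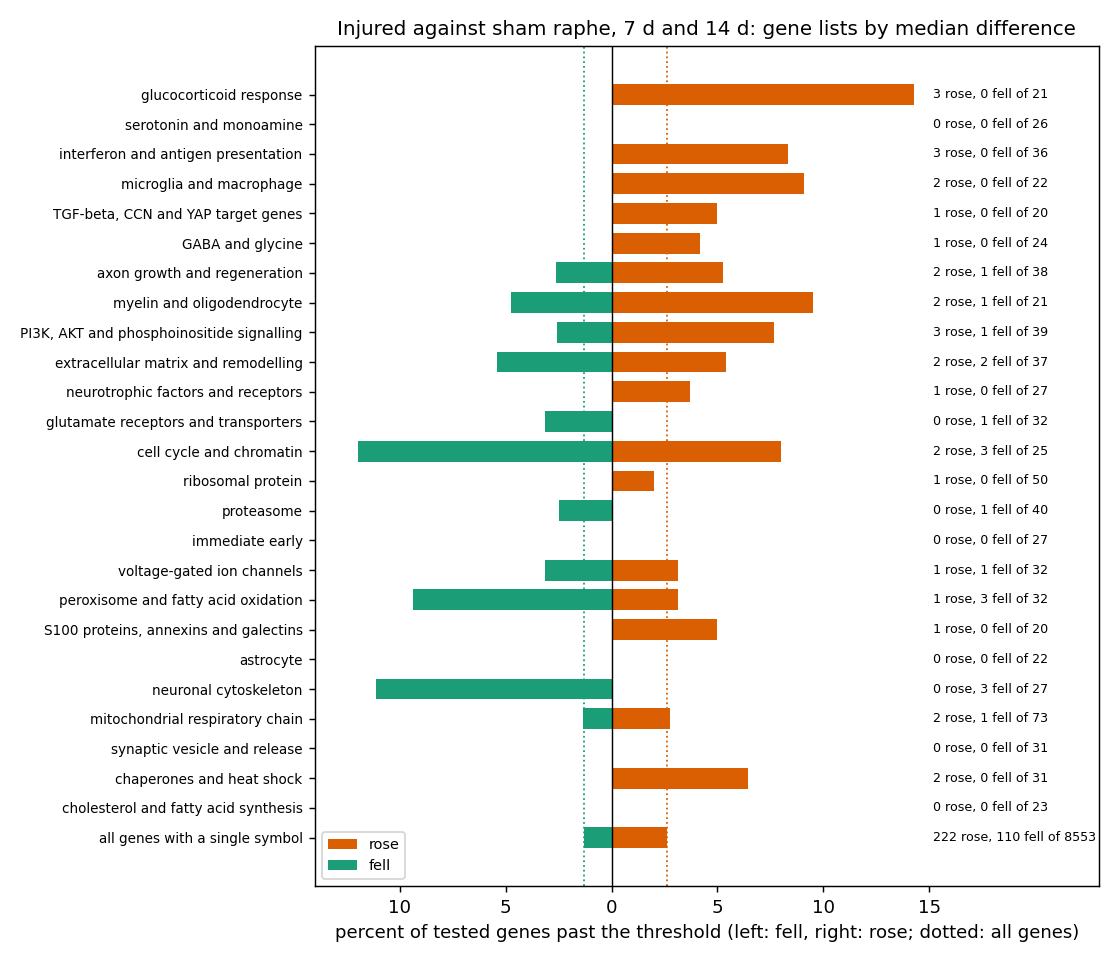
Percent of the tested genes of each list that rose (right, orange) or fell (left, green) in injured against sham raphe over 7 d and 14 d, with lists ordered by their median difference and counts at the right. Dotted lines give the 2.6% and 1.29% of all genes, and the glucocorticoid list stands at the top with 3 of 21.

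In the matrix, TGF-beta and growth factor groups single genes moved. Ccn2 was the only gene of 20 tested TGF-beta, CCN and YAP targets that passed, and the list had a median of 0.09. Of 37 genes of the extracellular matrix, Timp3 and the elastic fibre protein Fbln5 (0.48 ± 0.12) rose, and the protease Plau (-0.86 ± 0.15) and the collagen gene Col3a1 (-0.59 ± 0.13) fell. Plau, urokinase, read 71.6 to 138 in injured raphe and 187 to 257 in sham raphe. S100a11 was the only gene of 20 in the group of S100 proteins, annexins and galectins that passed, with a list median of -0.05. Pdgfa, a growth factor for oligodendrocyte precursors, rose by 0.69 ± 0.16 (7907 to 10200 in injured raphe and 3848 to 7320 in sham raphe), the only call among 27 neurotrophic genes, and its receptor gene Pdgfra rose by 0.62 ± 0.16. Another tested set of Ngfr, a gene of the neurotrophic list, fell by 0.40 (adjusted p = 0.0432 in limma).

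Among 21 myelin and oligodendrocyte genes, Pdgfra and Ugt8, an enzyme of myelin galactolipid synthesis (0.57 ± 0.14), rose, and the abundant myelin gene Mobp fell by 0.51 ± 0.11. Mobp read 24620 to 30290 in injured raphe and 32130 to 45420 in sham raphe, without overlap. Its difference was -0.18 with an adjusted p of 0.263 after quantile normalization, so it depends on the scaling. Another tested set of Mobp also fell, by 0.41 with no overlap (adjusted p = 0.0467 in limma). The remaining sets, at 0.05, 0.02 and 0.03, did not pass. In the PI3K group, Pdpk1 (0.81 ± 0.17), Gsk3b (0.66 ± 0.15) and Synj1 (0.46 ± 0.12), 2 kinases and a lipid phosphatase of this route, rose, and the inositol phosphatase Inpp5a fell by 0.59 ± 0.10, of 39 genes. Of 31 chaperones, Hspa13 and the calcium-binding chaperone Calr (0.61 ± 0.14) rose, and the median of the list was -0.09. Another tested set of Hsf1, a gene of that list, fell by 0.43 (adjusted p = 0.0487 in limma).

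Neuronal groups changed in few members. Of 27 genes of the neuronal cytoskeleton, Map6, a microtubule stabiliser (-0.59 ± 0.13), the tubulin Tubb5 (-0.66 ± 0.14) and the heavy neurofilament Nefh (-0.39 ± 0.09) fell and none rose. Of 32 glutamate receptors and transporters, the kainate receptor Grik3 fell by 0.97 ± 0.17. Of 32 voltage-gated channel genes, Cacna2d1 rose and the sodium channel Scn4a fell by 1.00 ± 0.25. Of 24 genes of GABA and glycine, the glycine receptor subunit Glra2 rose by 0.71 ± 0.14, and Gad2, which makes GABA at synapses, had a difference of 1.14 with an adjusted p of 0.0526. None passed among 26 serotonin and monoamine genes, 31 genes of synaptic vesicles and 27 immediate early genes. The medians of these 3 lists were 0.15, -0.08 and -0.01.

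In metabolic and housekeeping groups few members passed. Of 32 genes of peroxisomes and fatty acid oxidation, Phyh, which breaks down branched fatty acids, rose by 0.58 ± 0.11, and Hadh, Acads (-0.66 ± 0.17), a dehydrogenase of short fatty acids, and the nuclear receptor Ppara (-0.52 ± 0.12) fell. Of 73 genes of the respiratory chain, Atp5pf (0.72 ± 0.14) and Atp5me (0.40 ± 0.09), both of ATP synthase, rose and Ndufv2 of complex I fell by 0.54 ± 0.13. Of 25 genes of the cell cycle and chromatin, the inhibitors Cdkn1a and Cdkn1b (0.54 ± 0.12) rose, and Ccnd3 (-0.41 ± 0.09), Mcm6 (-0.60 ± 0.11) and Cdk5 (-0.46 ± 0.11) fell. Rps28 (0.51 ± 0.12) was the only call among 50 ribosomal protein genes, Psmf1 (-0.43 ± 0.11) the only call among 40 proteasome genes, and none of 23 genes of cholesterol and fatty acid synthesis passed. Another tested set of Acly, a gene of that last list, rose by 0.68 with no overlap (adjusted p = 0.0194 in limma).

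Taken at each time, 260 genes rose (3.04%) and 99 fell (1.16%) at 7 d, and 30 rose (0.351%) and 3 fell (0.0351%) at 14 d, with 4 injured and 2 sham samples at each. All 222 genes that rose over both times, and all 110 that fell, had the same sign at each time. They were called over both times together in these same samples, so the shared sign follows largely from the choice. The size was larger at 7 d for 146 of the 222 and for 65 of the 110. At 7 d 108 of the risen genes passed by themselves, at 14 d 19, and at both 8. Such counts at each time do not test a difference between the times.

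At 7 d, Akt2, a kinase of insulin signalling, was higher by 2.58 ± 0.31 (adjusted p = 0.0032 in limma), and at 14 d its difference was -0.27 ± 0.31. Gatm, the first enzyme of creatine synthesis (1.81 ± 0.20), Phf21a, a chromatin reader (1.72 ± 0.31), and Exoc2, a subunit of the exocyst (1.69 ± 0.35), rose at 7 d with Cacna2d1. Ces1dl1, a carboxylesterase (-1.96 ± 0.48), Mtmr1, a phosphoinositide phosphatase (-1.94 ± 0.40), Ncoa4, the cargo receptor of ferritin breakdown (-1.84 ± 0.30), Slc3a1, a subunit of an amino acid transporter (-1.68 ± 0.42), and Cyp4a1, a fatty acid hydroxylase (-1.43 ± 0.19), fell at 7 d. Apart from Cacna2d1, Cyp4a1 alone among these genes passed over both times (-0.97 ± 0.18). Of the 10 genes named at 7 d, 8 lost their call under at least 1 alternative, Slc3a1 without any of 10 of the 12 samples and Ces1dl1 without any of 8. At 7 d the other tested set of Ncoa4 passed in the opposite direction, at 0.81 (adjusted p = 0.0232 in limma). The other sets of Mtmr1 (0.63) and Exoc2 (-0.60 and 0.21) did not pass, and those at 0.63 and -0.60 had the opposite sign.

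At 14 d, Nmt1, which attaches myristate to proteins (1.40 ± 0.23), Wdfy1, an adaptor of Toll-like receptor signalling (1.38 ± 0.22), Tmem167a (1.36 ± 0.23), the progesterone receptor Pgr (1.08 ± 0.18) and Hmgb1 (1.07 ± 0.16) were the largest rises among genes above the median intensity, and all 5 lost their call under at least 1 alternative. Gad2 was also higher at 14 d, by 1.97 ± 0.27 (adjusted p = 0.0095 in limma). Gad2 read 267, 349, 245 and 367 in injured samples at 14 d, against 27.8 and 89.5 in sham samples at 14 d, while sham samples at 7 d read 285 and 378 and naive samples 263 to 367. The sham samples at 14 d stood apart from the rest for this gene. Their mean on the log2 scale, 6.41, lay below the 6.72 of the highest bacterial control on its array type. The size of the difference is therefore uncertain.

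The difference between the times was tested itself and held for 2 genes (0.0234% of those tested). Psmb8, a subunit of the immunoproteasome, read 378, 381, 406 and 332 in injured samples at 7 d and 390, 386, 414 and 398 at 14 d, against 78.4 and 75.0 in sham samples at 7 d and 399 and 307 at 14 d. The injured samples were alike at both times, and the sham samples at 7 d were low. Those sham values were close to or below the highest bacterial control (73.5, 96.2 and 105 on types A, B and C). The size of the difference is therefore uncertain. The effect at 14 d minus that at 7 d was -1.73 ± 0.20 (adjusted p = 0.0151 in limma), and 0.0552 without injured replicate 3 at 7 d. Naive samples read 377 to 552. Traf6, an adaptor of Toll-like and interleukin 1 receptors, had an effect of 0.85 ± 0.13 at 7 d and -0.43 ± 0.13 at 14 d, a change of -1.27 ± 0.19 (adjusted p = 0.0487 in limma). It read 230 to 271 in injured samples at 7 d and 153 to 190 at 14 d, against 119 and 129 in sham samples at 7 d and 267 and 219 at 14 d. Its call was lost without any of 10 of the 12 samples, with adjusted p-values up to 0.118.

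Injured and sham raphe were also set beside the naive samples, which had no operation and so no matched time. Both comparisons with naive raphe share the naive samples with each other and the injured or sham samples with the comparison above, so they are set side by side and not tested against it. Of all tested genes, 592 (6.92%) differed between injured and naive raphe and 468 (5.47%) between sham and naive raphe. Of the 222 genes that rose, 43 differed from naive raphe in injured samples alone, 65 in sham samples alone, 2 in both and 112 in neither. Their median difference from naive was 0.27 in injured raphe and -0.42 in sham raphe. Of the 110 that fell, 12 differed in injured samples alone, 24 in sham samples alone, none in both and 74 in neither, with medians of -0.16 in injured raphe and 0.40 in sham raphe.

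Ccn2, S100a11 and Cacna2d1 lay near the naive level in injured raphe and below it in sham raphe. Injured minus naive was 0.33 for Ccn2 (adjusted p = 0.294 in limma) and -0.08 for S100a11 (adjusted p = 0.857), and sham minus naive was -1.77 (adjusted p = 0.00118) and -1.70 (adjusted p = 0.00218). For Cacna2d1 these were 0.33 (adjusted p = 0.237) and -1.04 (adjusted p = 0.0108). Hspa13, Sh3bgrl1, Klf9, Pdgfa and Timp3 had the opposite pattern, with injured minus naive at 1.26, 1.14, 0.95, 0.87 and 0.77, all past the threshold, and sham minus naive at -0.10, -0.11, 0.29, 0.18 and -0.23, none past it. Among the falls, Stx6 and Cyb5b were above naive in sham raphe, by 1.49 (adjusted p = 0.00346 in limma) and 1.00 (adjusted p = 0.0165), and injured minus naive was -0.75 for Plau (adjusted p = 0.014).

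**Figure D3:**
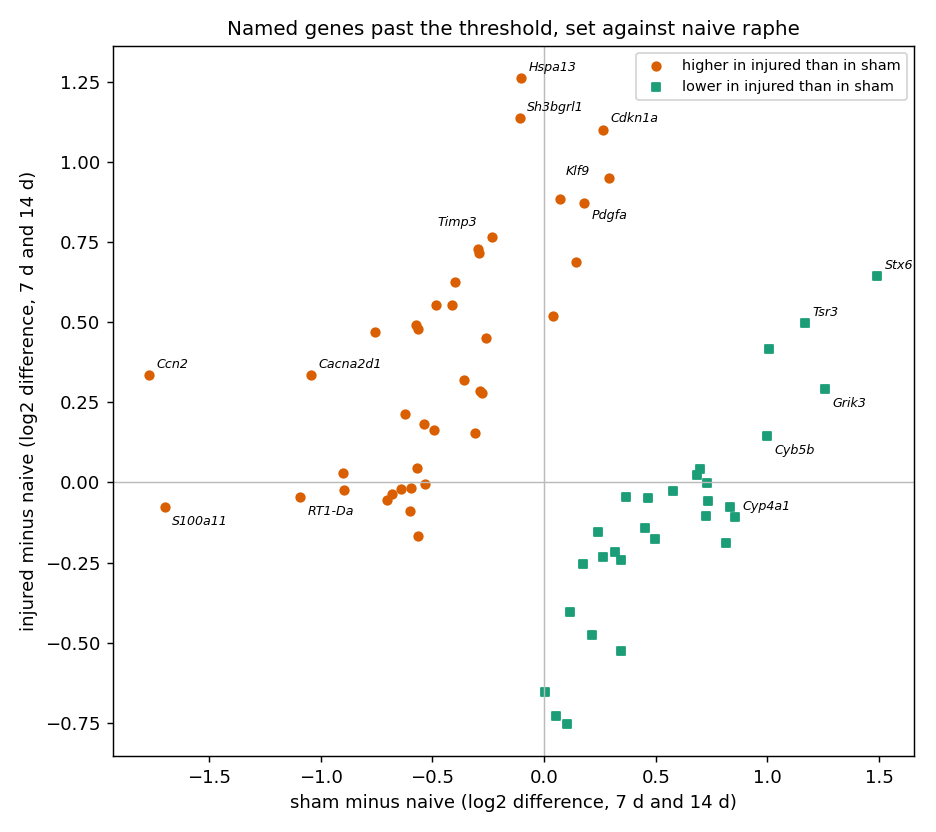
Log2 difference from naive raphe of the named genes past the threshold, injured minus naive on the vertical axis against sham minus naive on the horizontal axis, for genes higher (orange circles) and lower (green squares) in injured than in sham raphe. Ccn2 and S100a11 lie far to the left at -1.77 and -1.70 near the zero line of the vertical axis, while Hspa13 lies at the top at 1.26. Each axis uses the same naive samples.

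The differences at the other times are set beside those at 7 d and 14 d, the times for which these genes were chosen, so a wider difference there follows in part from the choice. From 4 h through 24 h, 7 d, 14 d and 28 d to 3 months, injured minus sham was -0.03, 0.38, 2.83, 1.38, 1.19 and -0.15 for Ccn2. The sham means at 7 d, on the log2 scale, lay below the highest bacterial control of their array types for Ccn2 (6.56 against 7.00), S100a11 (6.16 against 7.10) and Hspa13 (6.28 against 6.72). The size of these differences at 7 d is therefore uncertain. The difference was 0.47, 0.11, 1.06, 0.88, -0.06 and 0.10 for Tfpi, and 0.35, 0.32, 1.40, 1.09, 0.18 and 0.04 for Sh3bgrl1. S100a11 ran otherwise, with -0.65, 0.35, 2.32, 0.93, 1.93 and 2.47, since its sham samples were low at 28 d and 3 months too. On a score of region markers, sham replicate 1 at 3 months had 0.07 and sham replicate 2 had 0.93. Cortex samples at 7 d and 14 d had 0.01 to 0.22, so the value at 3 months is uncertain. Hspa13 had 0.11, 0.12, 2.16, 0.57, 1.06 and 0.68, so its difference did not fall off steadily after 7 d. Sham replicate 1 at 3 months has no type A array, so for type A genes such as Hspa13 the value at 3 months rests on sham replicate 2 alone. Single later times were not tested against 14 d. Gal had negative values outside the window, at -1.09, -0.36, 1.09, 0.93, -0.57 and -0.64, and for Cyb5b the values were 0.17, -0.09, -0.98, -0.73, -0.14 and -0.04.

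When the effect over 7 d and 14 d was tested against the mean effect of the other 4 times, no gene passed (0%), nor did any probe set, with 1228 probe sets at an unadjusted p under 0.05 and a smallest adjusted p of 0.131. That smallest value belonged to Cyb5b (-0.83), Inpp5a (-0.72) and Eif4ebp2, an inhibitor of translation (1.21), and Ccn2 had 1.75 (adjusted p = 0.186 in limma), Gal 1.67 (0.313), Hspa13 0.87 (0.502) and S100a11 0.60 (0.762). The other times hold 2 samples doubted for their weak-signal level, RNA quality or region markers, injured replicate 1 at 4 h and sham replicate 1 at 3 months. Without the doubted samples 12 probe sets passed, and Cyb5b was among them with an adjusted p of 0.0278.

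**Figure D4:**
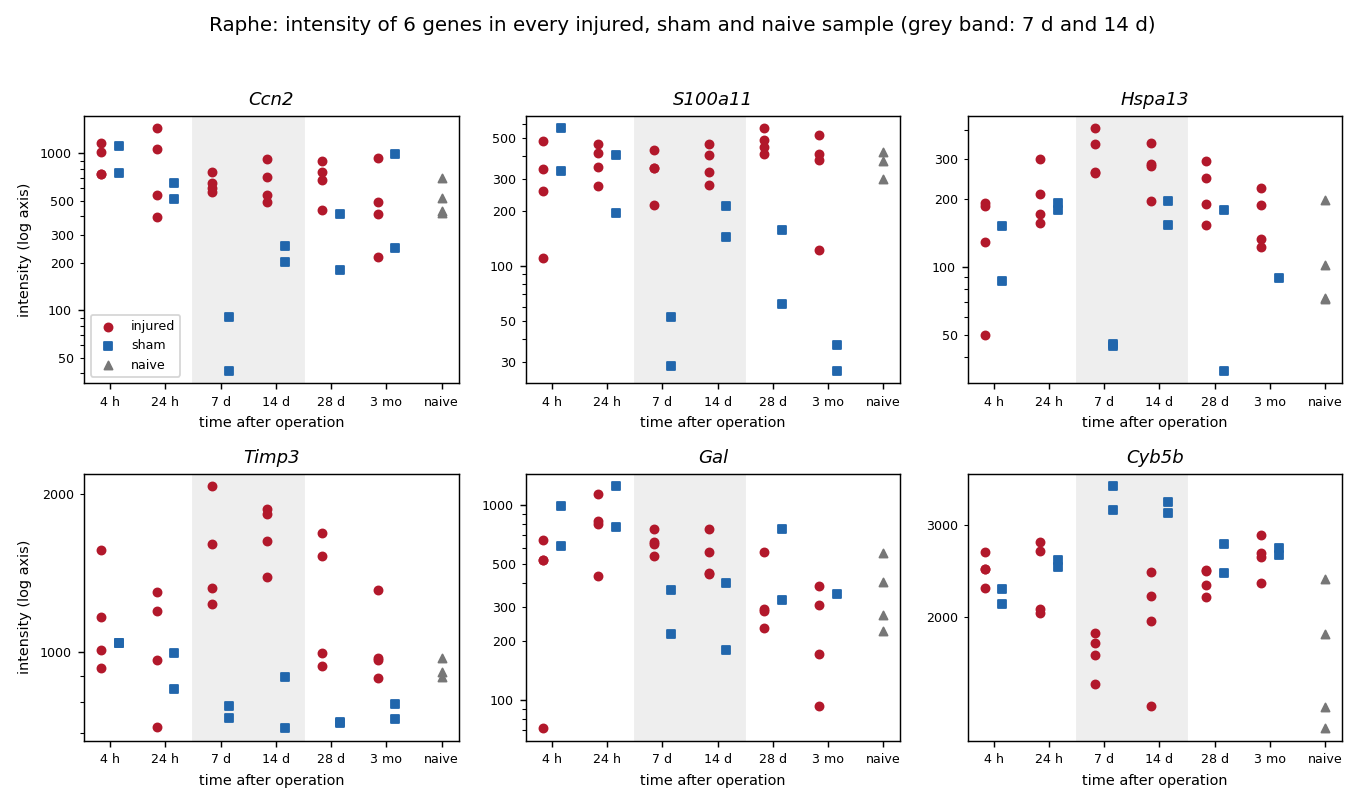
Intensity (log axis) of 6 genes in every injured (red circles), sham (blue squares) and naive (grey triangles) raphe sample by time after operation, with 7 d and 14 d shaded. Ccn2 reads 41.3 and 90.3 in the sham samples at 7 d, and the S100a11 values of sham samples are also low at 28 d and 3 months.

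In the somatomotor cortex of the same study, injured minus sham at 7 d and 14 d was 0.76 and 0.15 for Ccn2, 0.97 and 0.08 for S100a11, 0.29 and 0.36 for Hspa13 and 0.72 and 0.27 for Timp3. Cortex injured replicate 2 at 7 d and sham replicate 2 at 14 d, which is 1 of the 2 sham samples, were doubted for their weak-signal level. Tested as raphe minus cortex, these differences were 1.64 for Ccn2 (adjusted p = 0.0658 in limma), 1.10 for S100a11 (0.328) and 1.04 for Hspa13 (0.318). Of all genes, 1 passed (0.0117%), Dlgap1, a scaffold of the postsynaptic density, with -1.34 ± 0.15 (adjusted p = 4.1e-04 in limma). Dlgap1 had a difference of -0.02 in raphe, 641 to 1104 in injured samples and 687 to 1085 in sham samples. In cortex its difference was -0.43 at 7 d and 3.07 at 14 d, where it read 1753 to 2027 in injured samples and 191 and 205 in sham samples. Without the doubted samples 11 probe sets passed, Dlgap1 among them.

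Array medians were 203 to 378 intensity units in the injured group and 217 to 381 in the sham group, and the actin 3′ to 5′ ratio was 1.05 to 1.85 in the injured group and 1.15 to 1.99 in the sham group. None of the 12 samples was among those doubted, but sham replicates 1 and 2 at 7 d stood at one end of the 12. Averaged over the arrays of a sample, these had the highest actin ratios (1.71 and 1.95, the other 10 samples at most 1.68), the highest 5th percentiles of intensity (15.6 and 15.4, the others 12.1 to 13.6) and the lowest median correlations with the other raphe samples (0.949 and 0.947). The count with the actin ratio of the type A arrays as a covariate is given above, and the part of the other properties was not tested. The markers of neighbouring tissue were less even. The summed intensity of 7 choroid plexus genes, none of which passed, was 2446 to 66310 in injured raphe and 2665 to 5655 in sham raphe. It was highest in injured 14 d replicates 1, 2 and 4 and injured 7 d replicate 2. Ttr, the defining gene of that tissue, read 118 to 52950 in injured raphe and 428 to 3380 in sham raphe.

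The summed intensity of 17 genes of meninges and fibroblasts, of which Timp3 rose and Col3a1 fell, was 14000 to 39200 in injured raphe and 14220 to 16280 in sham raphe, highest in injured 7 d replicate 2 and injured 14 d replicates 1 and 3. Those 3 samples also had the 3 highest values of Timp3. The part of these tissues in the difference of Timp3 was not tested. Another tested set of Ogn, a gene of the meninges and fibroblast list, rose by 2.01 (adjusted p = 0.0188 in limma). Its sham mean lay below the level of the bacterial controls. The summed intensity of 8 blood genes, none of which passed, was 47220 to 74390 in injured raphe and 53550 to 111700 in sham raphe, highest in the sham samples at 7 d, at 99150 and 111700. Those sham samples were also the lowest for Ccn2, S100a11, Hspa13 and Psmb8, and the part of blood in these values was not tested.

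**Figure D5:**
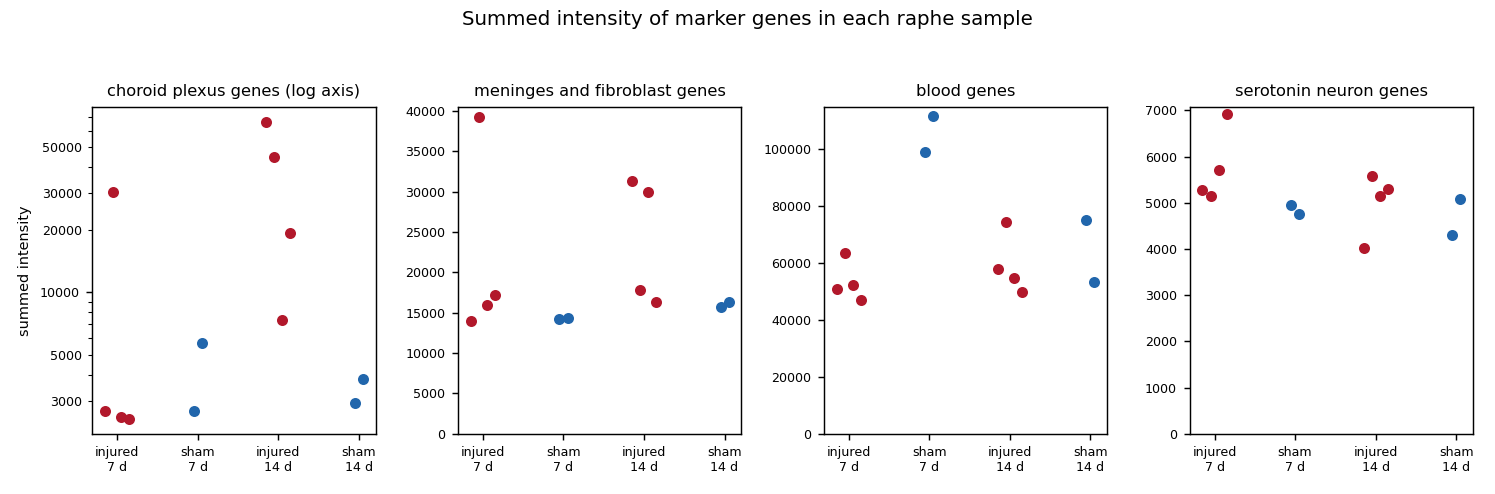
Summed intensity of marker genes of choroid plexus (log axis), meninges and fibroblasts, blood and serotonin neurons in each raphe sample at 7 d and 14 d, injured and sham. Choroid plexus genes reach 66310 in an injured sample and blood genes 111700 in a sham sample, while serotonin neuron genes stay between 4011 and 6925.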

How the data were processed

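The study's arrays of raphe and cortex RNA were of 3 types, A, B and C. The deposited values are intensity values on a linear scale, 1 per probe set, scaled by the authors array by array: the trimmed mean of each of the 36 arrays lay between 800.49 and 801.23. The software behind them was not given in the sources used here. Of 26202 probe sets without controls, 18178 carried a single gene symbol, 391 several and 7633 none. A probe set was tested if it exceeded the 40th percentile of its array in at least 4 of the 12 samples, which left 16663 probe sets and 8553 genes. After 32 was added and the log2 taken, limma 3.58.1 in R 4.3.3 was fitted within each array type, two-sided, with time as a block or with group means. Benjamini-Hochberg adjustment ran over the 3 types together, with a threshold of 0.05. The fit was tested on simulated data.

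The probe set with the highest mean stood for a gene. Named genes were the 12 largest rises and 12 largest falls above the median intensity over both times, the 5 largest in each direction at each time, those with the smallest p for the other tests, up to 4 members of each list with the smallest p, and Ccn2, S100a11 and Hspa13. Cdk5 and Ttr, named beyond this rule, were chosen after their values were seen. The samples, genes and lists were chosen with earlier results of these data known. Whether the labels' replicate numbers pair the samples could not be decided. Same-numbered injured and sham samples correlated at -0.11 to 0.09 and the others at -0.12 to 0.12. With 2 sham samples per time, deviations from their mean mirror each other, so these correlations cannot show or exclude a pairing. Alternatives were other scaling, filters, added values, weights, adjustment, spread, blocks and covariates, and leaving out each sample. Promoter windows came from RefSeq (GRCr8). Figures were drawn with matplotlib 3.10.9. The number of arrays limits the precision.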

Additional observations from a re-analysis of the deposited data

Results flagged for a closer look

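In 164 groups of 4 injured samples (82 genes at each of the times), 6 held a sample far from the other three, and chance gives about 5% of groups. Acads read 507 in injured 14 d replicate 1 (others 621 to 644), Gng5 1493 in injured 14 d replicate 4 (1718 to 1726) and Gsk3b 772 in injured 7 d replicate 4 (552 to 558). Plau read 86.4 in injured 14 d replicate 2 (117 to 118), Rps28 5891 in injured 14 d replicate 3 (8155 to 8430) and Tmem167a 1170 in injured 14 d replicate 2 (871 to 911).

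The injury effect at 14 d minus that at 7 d passed the limma test for 7 probe sets. Psmb8 had -1.73 and Traf6 -1.27. Probe sets of Usp34 (2.64), Ift25 (-2.09), Zfp91 (1.70) and Vps13d (1.89), which do not stand for their genes above, and a type C probe set with no gene symbol (3.54) were named after their values were seen. The injury effect in raphe minus that in cortex passed for Dlgap1 (-1.34) and for 2 probe sets with no gene symbol, 1 on type B (2.16) and 1 on type C (-1.83).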

How the results depend on the processing

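Among genes named for the comparison over both times, 68 passed the threshold: 3 (Ccn2, Timp3 and Hmgb1) kept their call under every alternative run, 65 lost it at least once and none changed sign. Over both times, 676 probe sets passed. The counts below are of probe sets.

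Quantile normalization gave 55 at 14 d, in place of 98, and 1 for raphe minus cortex, in place of 3. For the change between 7 d and 14 d, in place of 7, no filter gave 13, a filter at the 60th percentile 13, an added 1 gave 19, a 4 times larger added value 3 and adjustment within each type 15. The larger added value gave 1 for raphe minus cortex. Array weights gave 41 at 14 d and 3 for the change between times. With all raphe groups sharing the spread, doubted samples included, 161 passed over both times and 137 at 7 d (in place of 769). At 14 d 8 passed, and 0 did for the change between times (977 at an unadjusted p under 0.05). The actin ratio of the type A arrays as covariate on all types left 167 (137 higher and 30 lower), of which 155 were among the 676. The replicate block left 43 (38 higher and 5 lower), of which 35 were among the 676, and 63 of the 68 named genes lost their call. Whether the replicate numbers pair the samples could not be decided. Without the doubted samples, 12 passed against the other times (in place of 0) and 11 for raphe minus cortex. Without the type B array of sham 7 d replicate 2, an alternative added after seeing the data, 459 passed over both times.

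Leaving out 1 sample gave 145 to 783 over both times, 284 to 868 at 7 d, 42 to 175 at 14 d and 1 to 60 for the change between times, and 86.2% of the 145 calls without sham 7 d replicate 1 were higher in injured raphe, against 70.6% of the 676. The comparisons with naive raphe were run under 2 alternatives only, with no sample left out: quantile normalization gave 1149 for injured and 963 for sham raphe and the larger added value 1279 and 1027, beside 1192 and 967. The cause of these shifts was not tested. Arrays limit precision through 2 sham samples per time and weak signal near the level of the bacterial controls, below which 10 of the 222 risen genes had their lower group.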
